A study of Mus musculus with 9 samples.

Results

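Transcripts of 8 osteoclast-type and cell fusion genes were measured in mouse bone-marrow-derived macrophages that had taken up homogenised spinal cord. The 8 genes, of 53342 in the count table, were Tnfrsf11a, Oscar, Src, Nfatc1, Dcstamp, Ocstamp, Acp5 and Atp6v0d2. They were chosen by name for their roles, with their levels in these libraries already known, so their own differences between treatments are given as descriptions and support nothing. All macrophages were wild-type cells from C57BL/6J mice of both sexes aged 8 to 12 weeks. All cultures received 1% (10 mg per mL) cord homogenate for 24 h, made from pooled cords of C57BL/6 mice aged 8 to 20 weeks. They differed in the agent present from 2 h before the homogenate, which was vehicle medium, rapamycin (an inhibitor of the mTORC1 complex) or Torin-2 (which competes with ATP at the mTOR kinase). Each group held 3 libraries from separate animals, and the sources used here do not give the doses. No culture without homogenate is among the 9 libraries, and RANKL, the cytokine that drives osteoclast formation, is not among the agents the labels name.

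Osteoclasts are large cells of the macrophage lineage that form by fusion and dissolve bone. The receptor RANK (Tnfrsf11a) and immunoreceptors such as OSCAR signal through adaptors, Src-type kinases and calcium to the transcription factor NFATc1. NFATc1 in turn switches on fusion genes (Dcstamp, Ocstamp) and genes of the resorbing cell (Acp5, Atp6v0d2). In macrophages without this drive most of these genes are low, and some of them have other duties, in lysosomes for example.

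Library totals ran from 16116666 to 24044329 counts, and 12511 genes had enough counts to be tested. Values are CPM, counts per 1000000 scaled by TMM factors, and fold changes are log2 values from edgeR's quasi-likelihood fit, with a Benjamini-Hochberg adjusted p under 0.05 over all tested genes as the call. All 8 macrophage markers were tested, so the cells carried the markers of their label. Their sum was 11807 to 16419 CPM with vehicle, 19489 to 21152 with rapamycin and 14951 to 16763 with Torin-2. Most of that sum was Lyz2, at 8129.3 to 11755.2, 14254.5 to 15834.7 and 10695.4 to 12665.7 CPM. The markers did not move together. Adgre1 was highest with vehicle, at 870 to 993, 641 to 784 and 660 to 709 CPM, and Csf1r lowest, at 455 to 495, 619 to 778 and 561 to 598 CPM. Also among the 8 markers, Cd14 stood at 37.8 to 51.6 CPM with vehicle, 389 to 463 with rapamycin and 262 to 303 with Torin-2. Fcgr1 stood at 91.0 to 108, 73.1 to 79.1 and 31.2 to 41.5 CPM. The part of these shifts in the results was not tested. The markers that define a mature osteoclast did not form one picture. Calcr, the calcitonin receptor, had 0 counts in all 9 libraries and Car2, the carbonic anhydrase, stood at 0.963 to 2.64 CPM, whereas Ctsk, the collagen-degrading cathepsin K, stood at 24.6 to 60.5 CPM. The 8 genes are therefore described one by one and not as a programme.

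The members went in different directions. Rapamycin cultures had the highest levels of Ocstamp, Dcstamp and Tnfrsf11a. Torin-2 cultures had the highest levels of Atp6v0d2 and Src, and vehicle cultures the highest level of Acp5. In bulk RNA such as this, fewer cells of a type and less RNA per cell cannot be told apart. Of the 8 genes 6 passed the filter on low counts, Dcstamp and Oscar did not, and Ocstamp passed only through the rapamycin libraries. With Torin-2 against vehicle 3 of the 6 were called higher (Src, Atp6v0d2, Nfatc1) and 2 lower (Acp5, Tnfrsf11a), where 32.5% of all genes tested were called higher and 32.9% lower. With rapamycin against vehicle 3 were called higher (Ocstamp, Tnfrsf11a, Nfatc1) and 1 lower (Acp5), against 24.6% and 26.2% of all genes. With Torin-2 against rapamycin 2 were called higher (Src, Atp6v0d2) and 3 lower (Ocstamp, Tnfrsf11a, Acp5), against 24.2% and 24.1%. The groups did not overlap for 5, 4 and 5 of the 6 in these comparisons, as for 70.2%, 57.5% and 57.2% of all genes. The comparisons share libraries, and nothing is read from these counts.

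**Figure D1:**
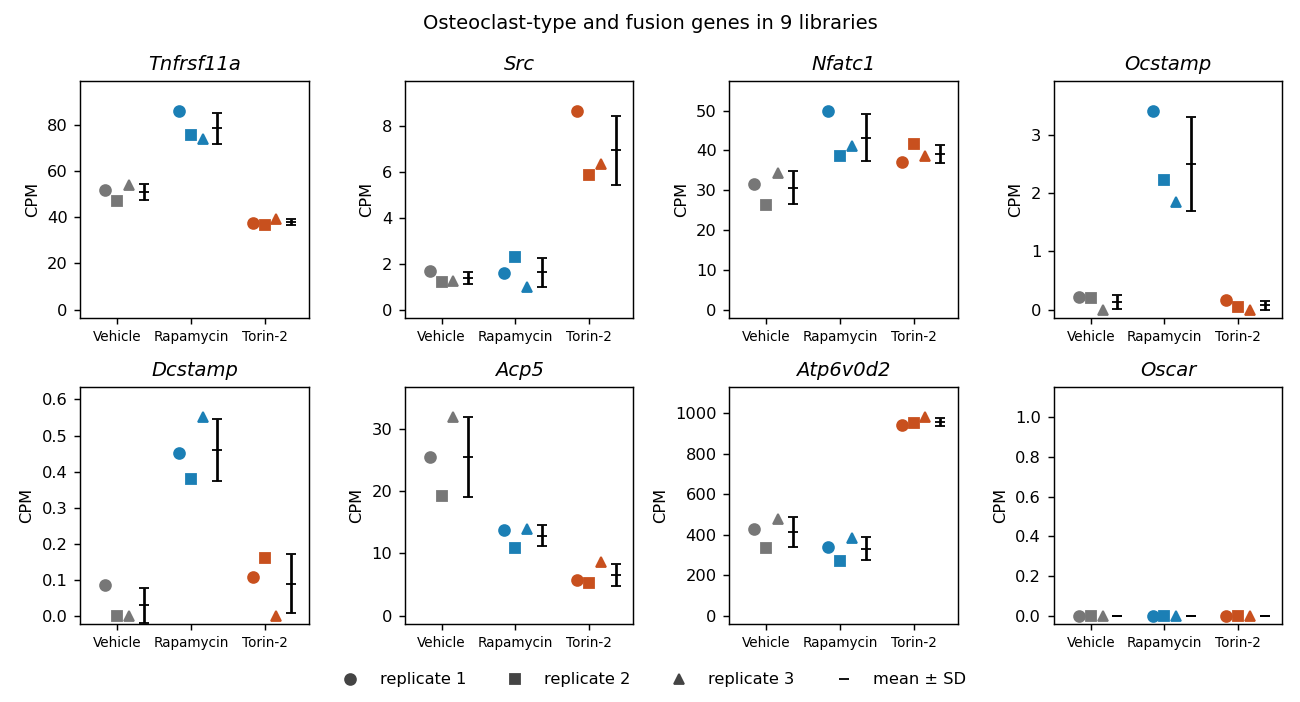
CPM of each of the 8 genes (vertical axes, linear, 1 scale per gene) in the vehicle, rapamycin and Torin-2 libraries, with 1 symbol per library shaped by replicate number and the mean ± SD of the 3 libraries beside them. Ocstamp reaches 1.85 to 3.41 CPM in the rapamycin libraries alone, Atp6v0d2 lies at 942 to 982 CPM in the Torin-2 libraries, above all the others, and Oscar lies at 0 throughout.

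Per length of exon, Atp6v0d2 was the most abundant of the 8 in every group, at 152 ± 26.7 CPM per kb in vehicle cultures (mean ± SD, n = 3). Acp5 followed at 12.6 ± 3.14, Tnfrsf11a at 8.51 ± 0.57 and Nfatc1 at 4.10 ± 0.546 CPM per kb, with no overlap between neighbours over the 3 vehicle libraries. Src lay at 0.315 ± 0.0579, and Ocstamp and Dcstamp, whose libraries overlapped, at 0.0372 ± 0.0323 and 0.0107 ± 0.0186 CPM per kb. The order changed with treatment. With rapamycin Tnfrsf11a (13.1 ± 1.11 CPM per kb) stood above Acp5 (6.34 ± 0.844) and Nfatc1 (5.79 ± 0.801), which overlapped. With Torin-2 Acp5, at 3.21 ± 0.885 CPM per kb, stood below Nfatc1 at 5.24 ± 0.298.

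Tnfrsf11a (ENSMUSG00000026321, GRCm38 chromosome 1, 105780718 to 105847981) encodes RANK, the receptor for RANKL. Its level was 51.8, 47.2 and 53.8 CPM in vehicle replicates 1, 2 and 3, 86.1, 75.7 and 73.8 CPM with rapamycin, and 37.4, 36.8 and 39.3 CPM with Torin-2. The 3 groups did not overlap, with rapamycin highest and Torin-2 lowest. The log2 difference was 0.62 ± 0.07 (SE) for rapamycin against vehicle, -0.43 ± 0.07 for Torin-2 against vehicle and -1.05 ± 0.07 for Torin-2 against rapamycin. The 2 inhibitors thus lay on opposite sides of vehicle for this receptor.

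Few counts fell on the ligand of RANK. Tnfsf11, which encodes RANKL, had 0 to 0.534 CPM in the vehicle libraries and at most 0.142 CPM in the treated ones, too few counts to be tested.

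Oscar (ENSMUSG00000054594, chromosome 7, 3609813 to 3616157) encodes a collagen-binding immunoreceptor that signals through the adaptor FcRγ. It had 0 counts in all 9 libraries, which allows up to 0.123 to 0.193 CPM per library (3 counts), a limit that covers counting error only. Oscar and Acp5 are both known targets of NFATc1, so their RefSeq promoters are printed here (GRCm38.p6, minus strand, the 250 bases before an annotated start, 5′ to 3′). Of the 8 genes, 4 were matched in the promoter table. Nfatc1, Dcstamp, Ocstamp and Atp6v0d2 were not. Capitals mark any match, on either strand, to GGAAA (the NFAT core), TGANTCA (bound by AP-1), CACGTG (an E-box of the MITF and TFE factors), CATGTG (the MITF M-box) or GGAAGT (an ETS motif of PU.1), and no matches overlapped.
Oscar, chr7:3616158-3616407: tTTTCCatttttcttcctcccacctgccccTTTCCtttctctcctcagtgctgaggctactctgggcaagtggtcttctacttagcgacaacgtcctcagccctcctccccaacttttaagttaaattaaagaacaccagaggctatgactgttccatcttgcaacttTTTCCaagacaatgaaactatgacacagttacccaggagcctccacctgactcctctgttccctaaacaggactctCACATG
Acp5 start 1, chr9:22135747-22135996: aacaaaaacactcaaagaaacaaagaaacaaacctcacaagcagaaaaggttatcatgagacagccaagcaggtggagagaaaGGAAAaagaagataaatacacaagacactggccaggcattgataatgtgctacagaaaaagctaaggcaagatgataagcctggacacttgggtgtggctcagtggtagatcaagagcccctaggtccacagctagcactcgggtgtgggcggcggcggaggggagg
Acp5 start 2, chr9:22131866-22132115: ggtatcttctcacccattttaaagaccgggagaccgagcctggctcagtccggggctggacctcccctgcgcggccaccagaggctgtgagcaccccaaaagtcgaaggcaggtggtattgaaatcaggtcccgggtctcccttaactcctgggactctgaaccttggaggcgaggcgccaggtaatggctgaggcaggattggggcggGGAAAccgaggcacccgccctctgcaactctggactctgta
Acp5 start 3, chr9:22130599-22130848: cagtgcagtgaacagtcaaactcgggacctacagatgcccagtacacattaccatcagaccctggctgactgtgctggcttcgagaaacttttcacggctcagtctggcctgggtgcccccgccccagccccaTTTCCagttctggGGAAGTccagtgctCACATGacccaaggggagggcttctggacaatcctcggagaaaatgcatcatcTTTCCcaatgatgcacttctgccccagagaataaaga

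The Oscar window held 3 NFAT cores and 1 M-box, while the 3 Acp5 windows held 1, 1 and 2 NFAT cores, the last also with 1 M-box and 1 ETS motif. The windows of Tnfrsf11a and Src, rich in G and C (73.6% and 82.8%), held no match to any of the 5 motifs. The Src window lies inside the annotated gene and 177 of its 250 bases fall in exons, so it does not describe sequence upstream of the whole gene. A match describes the letters in the window and does not show binding, and a motif on the other strand appears as its reverse complement. An NFAT core lies in 55.6% of the 32851 promoter windows of this length, an M-box in 12.3%, a PU.1 motif in 19.7%, an AP-1 motif in 6.75% and the E-box in 6.02%.

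Src (ENSMUSG00000027646, chromosome 2, 157418444 to 157471862) encodes the tyrosine kinase that osteoclasts need for their ruffled border. Vehicle libraries had 39, 25 and 26 counts (1.67, 1.21 and 1.25 CPM) and rapamycin libraries 25, 48 and 20 counts (1.61, 2.27 and 1.00 CPM). Torin-2 libraries had 162, 110 and 154 counts, or 8.66, 5.85 and 6.33 CPM, above all the others. The log2 difference was 2.32 ± 0.28 (SE) for Torin-2 against vehicle and 2.08 ± 0.28 for Torin-2 against rapamycin. For rapamycin against vehicle it was 0.24 ± 0.31, with overlapping groups. Even so, Src made up only 1.39% to 2.02% of the Src family transcripts per length with Torin-2 and 0.211% to 0.421% in the other libraries.

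Nfatc1 (ENSMUSG00000033016, chromosome 18, 80606205 to 80713071) encodes the master transcription factor of osteoclast formation. It stood at 31.5, 26.2 and 34.2 CPM with vehicle, 49.9, 38.5 and 41.2 CPM with rapamycin, and 37.1, 41.5 and 38.7 CPM with Torin-2. Both treated groups lay above vehicle without overlap, by 0.49 ± 0.11 (log2, SE) with rapamycin and 0.35 ± 0.11 with Torin-2, and they overlapped each other (Torin-2 against rapamycin -0.14 ± 0.11). The call for Torin-2 against vehicle (edgeR adjusted p 0.0155) was lost without vehicle replicate 2 (0.0631) or Torin-2 replicate 2 (0.068).

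Ocstamp (ENSMUSG00000027670, chromosome 2, 165393760 to 165400405) encodes a membrane protein needed for osteoclast precursors to fuse. It had 53, 47 and 37 counts in the rapamycin libraries (3.41, 2.23 and 1.85 CPM). Vehicle libraries had 5, 4 and 0 counts and Torin-2 libraries 3, 1 and 0, so the rapamycin group stood alone. Summed over libraries, the 137 counts with rapamycin against 9 with vehicle gave a ratio of 17.4 (95% exact interval 8.91 to 38.9, counting error only). The 4 counts with Torin-2 gave a ratio of 0.0267 to rapamycin (0.00718 to 0.07). Torin-2 and vehicle could not be separated at this depth (ratio 0.465, interval 0.105 to 1.67).

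Dcstamp (ENSMUSG00000022303, chromosome 15, 39745930 to 39760938) encodes a related membrane protein of fusing cells. Its counts were at the edge of detection, with 7, 8 and 11 in the rapamycin libraries, 2, 0 and 0 with vehicle and 2, 3 and 0 with Torin-2. The rapamycin libraries were again above all the others. The summed ratio of rapamycin to vehicle was 14.9 with an interval of 3.72 to 129, and that of Torin-2 to rapamycin 0.176 (0.0528 to 0.466), both for counting error only. At its highest, Dcstamp stood at 0.551 CPM.

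Acp5 (ENSMUSG00000001348, chromosome 9, 22126727 to 22135711) encodes tartrate-resistant acid phosphatase, the classical stain for osteoclasts, which macrophages also make. It was highest with vehicle, at 25.4, 19.2 and 31.9 CPM, lower with rapamycin, at 13.8, 10.9 and 13.9 CPM, and lowest with Torin-2, at 5.67, 5.31 and 8.59 CPM. No 2 of the 3 groups overlapped. The log2 difference from vehicle was -0.99 ± 0.20 (SE) with rapamycin and -1.95 ± 0.21 with Torin-2, and -0.96 ± 0.22 between Torin-2 and rapamycin. The counts do not separate the 3 starts whose promoters are printed above. Acp2, the general lysosomal acid phosphatase, stood at 219 ± 9.92, 218 ± 13.0 and 165 ± 1.53 CPM in vehicle, rapamycin and Torin-2 (mean ± SD, n = 3). It fell with Torin-2 by 0.41 on the log2 scale (SE 0.06, edgeR adjusted p 5.52e-05) and was not called with rapamycin (0.914). Acp5 made up 18.9% to 27.3% of the transcripts of the 2 genes per length with vehicle, 11.1% to 14.9% with rapamycin and 7.52% to 11.8% with Torin-2, where the last 2 groups overlapped.

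Atp6v0d2 (ENSMUSG00000028238, chromosome 4, 19876841 to 19922605) encodes the d2 subunit of the vacuolar proton pump (V-ATPase), the form that osteoclasts and some macrophages use in place of d1. Its level was 431, 334 and 476 CPM with vehicle, 340, 269 and 382 CPM with rapamycin, and 942, 950 and 982 CPM with Torin-2. Torin-2 libraries were above all the others and spread by only 2.2% (coefficient of variation), against 17.5% with vehicle and 17.3% with rapamycin. The log2 difference was 1.21 ± 0.13 (SE) against vehicle and 1.54 ± 0.13 against rapamycin. Rapamycin and vehicle overlapped, at -0.32 ± 0.13, and were not called (edgeR adjusted p 0.0598). Within each replicate number, however, rapamycin was at 0.789, 0.805 and 0.803 of vehicle, and with the replicate number as a block the difference was called (adjusted p 0.00389). It was also called with library totals alone (0.0135), DESeq2 (0.0241), no filter (6.18e-05), and without vehicle replicate 2 (0.00738), rapamycin replicate 3 (0.0199) or replicate 3 of every group (0.0396). It was not called with RLE size factors (0.0634) or without any of the other 7 libraries (0.0771 to 0.22). The fit with no filter gave far smaller adjusted p for this gene in every comparison, so its call adds little.

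**Figure D2:**
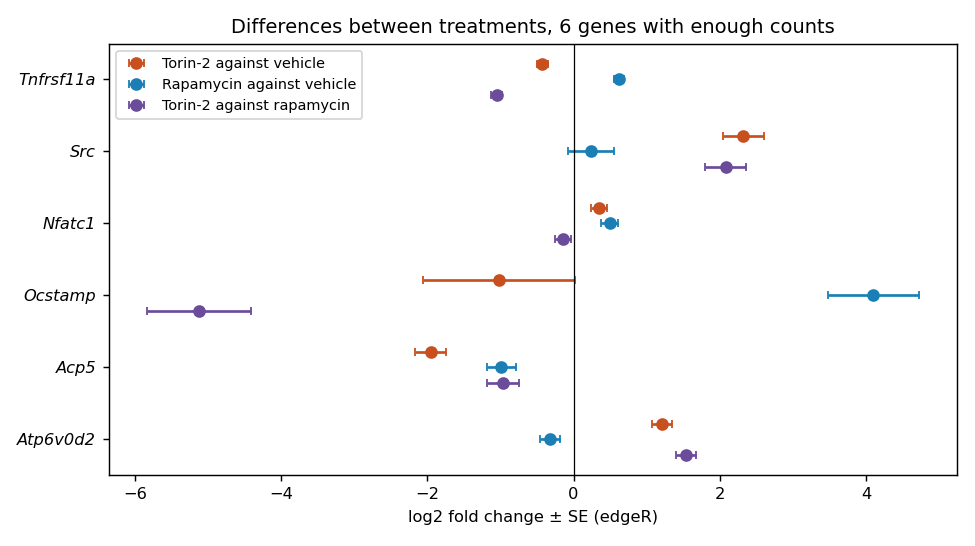
Log2 fold change ± SE from edgeR (horizontal axis) of the 6 genes with enough counts, in each of the 3 comparisons, which share libraries. Src and Atp6v0d2 lie to the right of 0 in both comparisons of Torin-2, Acp5 lies to the left in all 3, and Ocstamp runs from -5.12 (Torin-2 against rapamycin) to 4.10 (rapamycin against vehicle).

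Most other genes of the proton pump were lower with Torin-2. Of 16 other subunit genes, 12 fell with Torin-2 against vehicle, 1 rose (Atp6v1a, 0.19 ± 0.07, adjusted p 0.0341, lost when any single vehicle or Torin-2 library was left out, at 0.0569 to 0.106) and 3 were not called (edgeR, Benjamini-Hochberg). These calls are 75% lower and 6.25% higher, against 32.9% and 32.5% of all genes tested. The median log2 fold change of the 16 genes was -0.32, against -0.01 over all genes tested. The largest falls were Atp6v0a2 (-1.04 ± 0.06, adjusted p 1.77e-08) and Atp6v1h (-0.87 ± 0.08, adjusted p 9.57e-07), which fell with rapamycin too, by 0.23 and 0.55 on the log2 scale, and were lower with Torin-2 than with rapamycin (-0.80 and -0.32). Atp6v0d1, the gene of the widely expressed d1 subunit, fell from 342 ± 3.97 to 226 ± 4.22 CPM with Torin-2 (log2 -0.60, edgeR adjusted p 3.73e-07) and to 251 ± 7.17 CPM with rapamycin (-0.45, adjusted p 1.29e-05). Per length, d2 made up 73.1% to 74.3% of d1 and d2 transcripts with Torin-2, against 39.5% to 47.6% with vehicle and 40.8% to 50.1% with rapamycin. With rapamycin against vehicle 8 of the 16 subunit genes fell (50%) and 0 rose, against 26.2% and 24.6% of all genes tested. Over the alternatives 6 to 12 fell and 0 or 1 rose. Tcirg1, the a3 subunit of osteoclasts and of lysosomes, was not called in any comparison (adjusted p 0.0728, 0.143 and 0.812, edgeR), although library totals alone called it with Torin-2 (0.0313) and rapamycin (0.00843), and leaving out Torin-2 replicate 2 called it with Torin-2 (0.027).

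**Figure D3:**
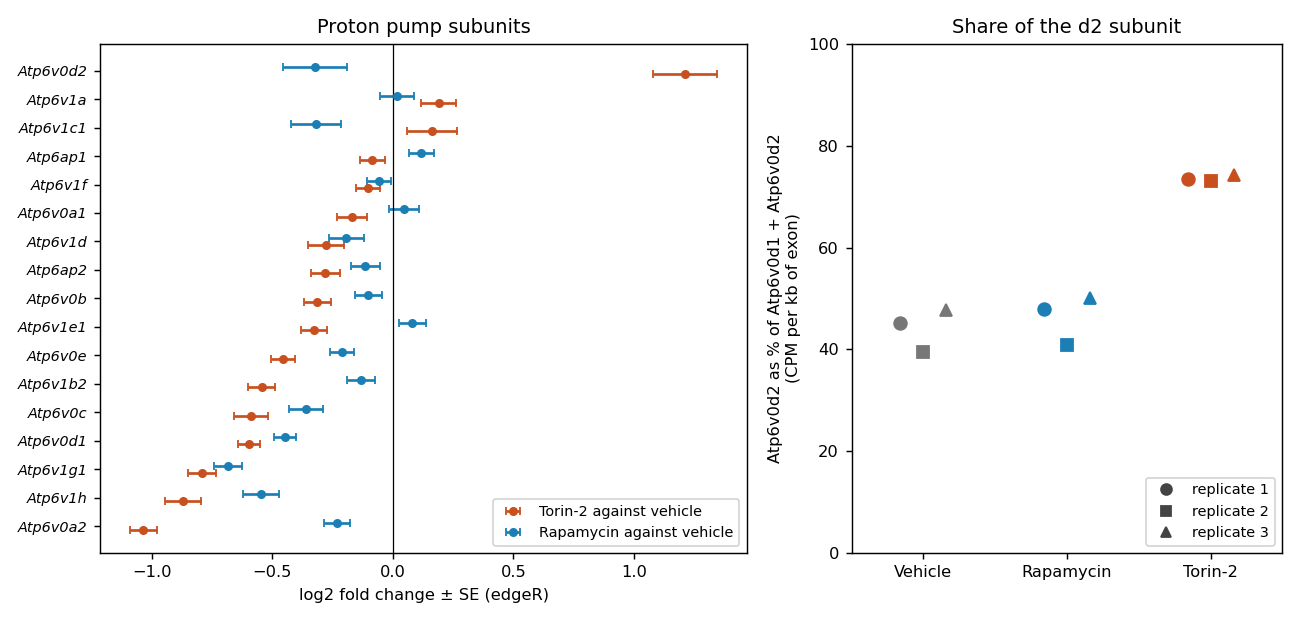
Left, log2 fold change ± SE (edgeR) of Atp6v0d2 and 16 other proton pump genes for Torin-2 and for rapamycin, each against the same vehicle libraries. Right, the share of Atp6v0d2 in the summed CPM per kb of Atp6v0d1 and Atp6v0d2 in each library, which is 73.1% to 74.3% with Torin-2 and at most 50.1% elsewhere.

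Genes that act with the 8 members were taken from 8 lists set by role, 175 genes in all, of which 168 were tested. With Torin-2 against vehicle 70 rose and 51 fell, with rapamycin against vehicle 70 rose and 32 fell, and with Torin-2 against rapamycin 45 were higher and 61 lower (edgeR, adjusted p under 0.05). As shares of the 168 these are 41.7% and 30.4%, 41.7% and 19%, and 26.8% and 36.3%. The background shares are those given above. The medians of the 168 were 0.08, 0.17 and -0.06 (log2), against -0.01, 0.00 and -0.00 over all genes. Scaling by library totals alone changed the split for rapamycin against vehicle to 63 higher and 47 lower (over all genes from 3078 and 3273 to 2421 and 4046). For Torin-2 against rapamycin it gave 52 higher and 45 lower.

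Receptors and adaptors rose in larger numbers than they fell. Of 26 tested, 16 rose (61.5%) and 4 fell (15.4%) with Torin-2, against 32.5% and 32.9% of all genes tested. With rapamycin 13 rose (50%) and 3 fell (11.5%), against 24.6% and 26.2% of all genes (median 0.29 with Torin-2 and 0.28 with rapamycin). The paired immunoreceptors Sirpb1a (1.80 ± 0.15, adjusted p 8.18e-07) and Pira2 (1.74 ± 0.06, adjusted p 7.16e-10, from 28.7 ± 0.721 to 95.4 ± 5.79 CPM) rose most with Torin-2, and rose with rapamycin too (1.38 and 0.50). Traf3, a brake on non-canonical NF-κB signalling, fell by 0.45 and the adaptor Blnk by 0.41 on the log2 scale (adjusted p 0.00264 and 0.00109). With rapamycin Blnk fell (-0.66) and Traf3 was not called (0.17). Torin-2 stood above rapamycin for Sirpb1a (0.42), Pira2 (1.23) and Blnk (0.25) and below it for Traf3 (-0.61), all called. Traf6, the adaptor that carries the RANK signal, was not called in any of the 3 comparisons (48.1 ± 1.00, 50.8 ± 3.26 and 51.7 ± 2.21 CPM in vehicle, rapamycin and Torin-2).

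Of the receptor genes described by name, Itgb3, the β3 chain of the osteoclast vitronectin receptor, rose with Torin-2 from 30.7 ± 6.44 to 64.8 ± 9.32 CPM (1.08, adjusted p 5.36e-05) and fell with rapamycin to 17.1 ± 2.38 CPM (-0.86, adjusted p 0.00093). The difference between the inhibitors was 1.93 ± 0.16 (edgeR adjusted p 2.21e-06). Tyrobp, the adaptor DAP12, rose with rapamycin from 646 ± 84.0 to 919 ± 2.12 CPM (0.51, adjusted p 0.000236) and stood at 649 ± 8.62 CPM with Torin-2 (adjusted p 0.953). Csf1r, the receptor for the growth factor M-CSF, rose with both, by 0.57 with rapamycin and 0.30 with Torin-2 (adjusted p 8.59e-05 and 0.00438), with Torin-2 below rapamycin (-0.27), and overlaps the less counted Hmgxb3.

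Of 17 calcium and NFAT genes, 7 rose (41.2%) and 2 fell (11.8%) in each comparison with vehicle (median 0.08 with Torin-2 and 0.24 with rapamycin). The shares over all genes tested were 32.5% and 32.9% with Torin-2 and 24.6% and 26.2% with rapamycin. Nfat5 (1.63 ± 0.12, adjusted p 2.63e-07) and the calcium release channel Itpr1 (0.68 ± 0.18, adjusted p 0.00582) rose with Torin-2. The calcium sensor Stim1 fell by 0.67 and Fkbp1a, the gene of the protein through which rapamycin binds mTOR, by 0.44 on the log2 scale (adjusted p 4.27e-07 and 1.59e-05). With rapamycin Nfat5 rose (0.73) and Stim1 fell (-0.19), while Itpr1 (0.35) and Fkbp1a (0.08) were not called. Torin-2 stood above rapamycin for Nfat5 (0.90) and below it for Stim1 (-0.48) and Fkbp1a (-0.52), and Itpr1 (0.33) was not called. Rcan1, a calcineurin regulator that NFAT itself induces, rose with Torin-2 from 29.3 ± 3.37 to 45.0 ± 4.87 CPM (0.62, adjusted p 0.00165) and was not called with rapamycin (0.318), with Torin-2 above rapamycin (0.45).

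Of 22 osteoclast transcription factor genes, 12 rose (54.5%) and 4 fell (18.2%) with Torin-2, against 32.5% and 32.9% of all genes tested. With rapamycin 15 rose (68.2%) and 2 fell (9.09%), against 24.6% and 26.2% of all genes (median 0.37 with Torin-2 and 0.61 with rapamycin). Mitf, which acts with NFATc1 on osteoclast genes, rose from 31.6 ± 1.90 CPM to 77.7 ± 4.95 with rapamycin and 113 ± 2.25 with Torin-2 (1.30 and 1.84, adjusted p 7.56e-08 and 8.84e-10). Junb, an AP-1 subunit, rose by 1.92 with rapamycin and 1.88 with Torin-2 (adjusted p 2.1e-08 and 3.59e-09), but its reads cannot be told from those of Prdx2, which overlaps it on the other strand. Jdp2 fell by 1.32 and Jun by 0.39 on the log2 scale with Torin-2 (adjusted p 1.7e-05 and 0.00021), and Jdp2 overlaps a less counted transcript. With rapamycin both fell too (-0.83 and -0.32). Torin-2 stood above rapamycin for Mitf (0.55) and below it for Jdp2 (-0.49), and Junb (-0.03) and Jun (-0.07) were not called.

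Repressors of osteoclast formation were mostly higher with rapamycin. With rapamycin against vehicle 10 of 15 rose (66.7%) and 1 fell (6.67%), against 24.6% and 26.2% of all genes tested. With Torin-2 against vehicle 6 rose (40%) and 7 fell (46.7%), against 32.5% and 32.9% of all genes. With Torin-2 against rapamycin 9 were lower (60%) and 0 higher, against 24.1% and 24.2% of all genes (0 to 2 higher and 8 or 9 lower over the alternatives). Their medians were 0.57, -0.26 and -0.29 in this order. Klf2 rose with rapamycin from 36.4 ± 6.40 to 66.1 ± 4.05 CPM and fell with Torin-2 to 8.33 ± 0.936 CPM (0.86 and -2.13, adjusted p 7.93e-05 and 4.99e-08). Between the inhibitors Klf2 differed by -2.99, which was called. Klf4 fell with Torin-2 (-1.60 ± 0.24, adjusted p 0.000103) and was lower than with rapamycin (-1.68). Rapamycin against vehicle was not called for Klf4 (0.07). Irf2 and Zeb2 rose with Torin-2 by 1.17 and 1.14 (adjusted p 3.95e-07 and 1.33e-07) and with rapamycin by 1.16 and 1.01 (1.89e-06 and 1.65e-06), and Zeb2 overlaps its antisense transcript. Torin-2 against rapamycin was not called for either (0.01 and 0.14), although the replicate block (edgeR adjusted p 0.0361) and library totals alone (0.0265) called Zeb2. Irf8, a brake on Nfatc1, fell with Torin-2 by 0.26 on the log2 scale (adjusted p 0.0219), a call that ended without replicate 3 of every group (0.087) or without single libraries (Torin-2 replicate 2, 0.0743, and vehicle replicates 1 and 3, 0.0534 and 0.0943).

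Of 25 fusion and surface genes other than the members, 10 rose (40%) and 9 fell (36%) with Torin-2, near the 32.5% and 32.9% of all genes tested. With rapamycin 7 rose (28%) and 4 fell (16%), against 24.6% and 26.2% of all genes (median -0.05 with Torin-2 and 0.04 with rapamycin). Over the alternatives 7 to 9 rose and 3 to 8 fell with rapamycin. Cd200 (1.81 ± 0.11, adjusted p 3.83e-08) and the ATP-gated channel P2rx7 (0.92 ± 0.05, adjusted p 3.03e-08) rose most with Torin-2. The podosome scaffold Sh3pxd2a fell by 0.88 and annexin Anxa5 by 0.81 on the log2 scale (adjusted p 0.00027 and 1.1e-07). With rapamycin Cd200 (0.99) and P2rx7 (0.40) rose, while Anxa5 (0.00) was not called. Sh3pxd2a (-0.35) was not called either, except with library totals alone (edgeR adjusted p 0.0222), no filter (0.0228) or without vehicle replicate 2 (0.0407). Torin-2 against rapamycin gave 0.81, 0.52, -0.53 and -0.81 for the 4 genes, all called.

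Of 22 resorption genes, 8 rose (36.4%) and 7 fell (31.8%) with Torin-2, near the 32.5% and 32.9% of all genes tested. With rapamycin 5 rose (22.7%) and 11 fell (50%), against 24.6% and 26.2% of all genes (median 0.06 with Torin-2 and -0.20 with rapamycin). Mmp9, a gelatinase, rose from 6.37 ± 0.713 CPM to 22.4 ± 5.68 with rapamycin and 46.6 ± 14.3 with Torin-2 (1.81 and 2.87, adjusted p 9.72e-05 and 7.81e-07). Ctsk rose with Torin-2 from 36.4 ± 2.88 to 55.5 ± 4.46 CPM (0.61, adjusted p 4.44e-05) and fell with rapamycin to 26.8 ± 1.90 CPM (-0.44, adjusted p 0.00119). Slc4a2, a chloride-bicarbonate exchanger, showed the largest rise with Torin-2 (4.04 ± 0.17, adjusted p 2.65e-09), but overlaps Fastk on the other strand. Creatine kinase Ckb fell by 1.58 and osteopontin Spp1 by 1.16 on the log2 scale (adjusted p 2.93e-09 and 6.46e-05). With rapamycin Slc4a2 rose (0.76) and Ckb fell (-0.84), and Spp1 was not called (-0.34) except with the replicate block (edgeR adjusted p 0.015), with library totals alone (0.043) and with no filter (2.45e-05). Torin-2 against rapamycin gave 1.06 for Mmp9, 1.05 for Ctsk, 3.27 for Slc4a2, -0.74 for Ckb and -0.82 for Spp1, all called.

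Of the 25 kinase and podosome genes tested, 10 rose (40%) and 6 fell (24%) with Torin-2, against 32.5% and 32.9% of all genes tested. With rapamycin 13 rose (52%) and 1 fell (4%), against 24.6% and 26.2% of all genes (median 0.20 with Torin-2 and 0.30 with rapamycin). The ubiquitin ligase Cblb, which restrains Src-type kinases, rose from 31.5 ± 0.517 CPM to 61.6 ± 2.87 with rapamycin and 163 ± 6.46 with Torin-2 (0.97 and 2.37, adjusted p 2.34e-07 and 1.38e-10), and tensin Tns3 rose by 1.11 with Torin-2 (adjusted p 1.97e-07). Gelsolin Gsn fell by 0.70 and Cdc42 by 0.56 on the log2 scale (adjusted p 2.89e-06 and 3.42e-06). With rapamycin Tns3 rose (0.76) and Cdc42 fell (-0.15), and Gsn (0.05) was not called. Torin-2 against rapamycin gave 1.41 for Cblb, 0.35 for Tns3, -0.75 for Gsn and -0.41 for Cdc42, all called. Among the relatives of Src, Lyn rose with both inhibitors (0.30 with rapamycin and 0.24 with Torin-2, adjusted p 0.000661 and 0.00197). Fgr rose with rapamycin (1.67, adjusted p 4.55e-05). With Torin-2 Fgr was called only with the replicate block (edgeR adjusted p 0.0305, and 0.312 without it). Fyn fell with Torin-2 (-0.26, adjusted p 0.0162), a call lost without Torin-2 replicate 2 (0.0597) or replicate 3 of every group (0.0676). Yes1 and Lck stood below 1 CPM on average in each group and Blk had 0 counts.

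Some smaller calls changed with single libraries or with other settings. Those given here, except that of Cdc42, are for Torin-2 against rapamycin, where Atp6v0d1 was lower with Torin-2 (-0.15, edgeR adjusted p 0.0202). Where these genes were called against vehicle, the call held under all 15 alternatives, except that of Cdc42 with rapamycin. Between the inhibitors, leaving out rapamycin replicate 2 or either of Torin-2 replicates 1 and 3 ended the calls of Blnk (edgeR adjusted p 0.0653 to 0.132) and Atp6v0d1 (0.0639 to 0.075). The call of Sirpb1a ended without any of these 3 or rapamycin replicate 3 (0.0793 to 0.0974), and that of Jdp2 without rapamycin replicate 2 or Torin-2 replicates 2 or 3 (0.0622 to 0.161). In the same comparison the call of Rcan1 ended without rapamycin replicate 1, rapamycin replicate 3 or Torin-2 replicate 2 (0.0507 to 0.0777). That of Sh3pxd2a ended without rapamycin replicate 1 or 2 or Torin-2 replicate 2 (0.051 to 0.056), and that of Csf1r without rapamycin replicate 1 (0.0502). Between the inhibitors, leaving out replicate 3 of every group ended the calls of Sirpb1a (0.147), Blnk (0.108), Atp6v0d1 (0.0641) and Jdp2 (0.0564). Library totals alone ended those of Atp6v0d1 (0.207), Jdp2 (0.058) and Csf1r (0.0552), no filter those of Atp6v0d1 (0.155) and Sirpb1a (0.0532), and DESeq2 that of Sirpb1a (0.0578). A call of Itpr1 between the inhibitors appeared without rapamycin replicate 1 (0.0413). The fall of Cdc42 with rapamycin ended with no filter (0.126) and without vehicle replicate 1 or 2, rapamycin replicate 1 or 2, or Torin-2 replicate 1 or 3 (0.0591 to 0.15).

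**Figure D4:**
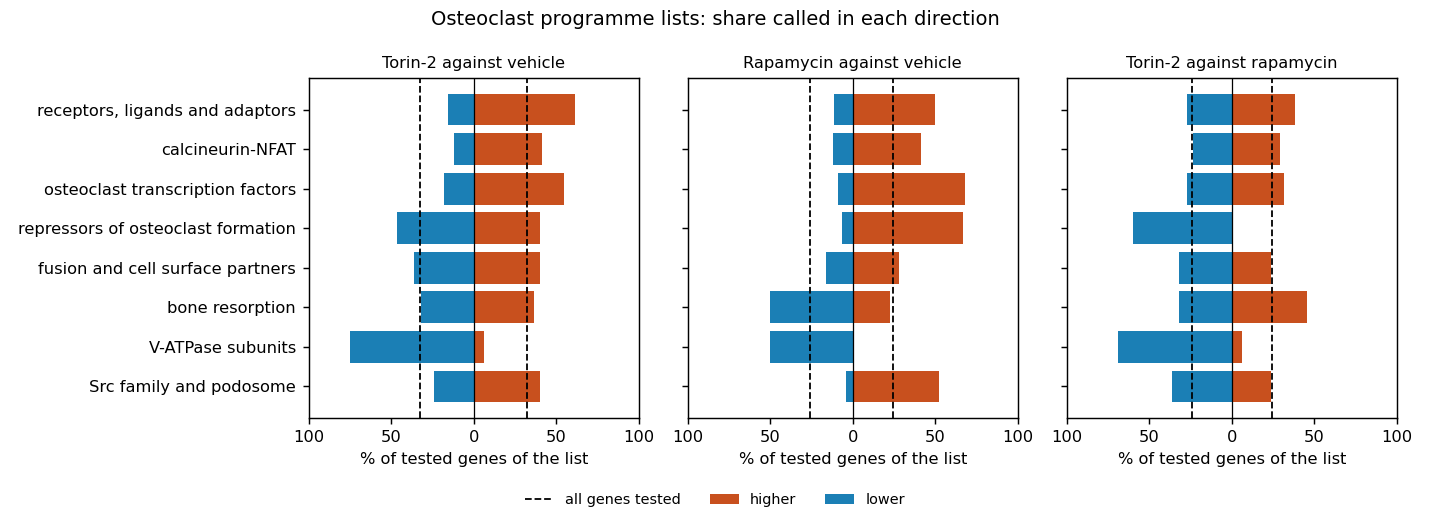
Share of the tested genes of each of the 8 lists that were called higher (right of 0) or lower (left of 0) in each comparison, with dashed lines at the shares over all 12511 genes tested. The proton pump subunits reach 75% lower with Torin-2 against vehicle, and the repressors 60% lower and 0% higher with Torin-2 against rapamycin.

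Markers of other cells also differed between groups, and their part in these results was not tested. Of 12 osteoblast and stromal markers 6 were tested and Bglap was at 0, and their sum was 26.4 to 81.8 CPM with vehicle, 31.8 to 143 with rapamycin and 14.3 to 29.7 with Torin-2, mostly collagens and Sparc. The 12 neural and myelin markers summed to 500 to 637, 715 to 883 and 378 to 436 CPM. Most of that sum was Mbp, at 367 to 472, 537 to 668 and 298 to 344 CPM. Cnp, which overlaps the more counted Dnajc7, went the other way with rapamycin, at 31.1 to 35.1, 20.1 to 24.9 and 17.9 to 19.1 CPM. Among microglia markers, P2ry12 stood at 5.73 to 11.1 CPM with vehicle, 0.702 to 1.48 with rapamycin and 0.802 to 1.12 with Torin-2, and Gpr34 at 1.01 to 1.46 CPM with vehicle and at most 0.201 in the treated libraries. Tmem119 overlapped between groups at 2.86 to 6.84 CPM, Cx3cr1 lay at 2.98 to 5.57, 2.11 to 5.49 and 0.159 to 0.374 CPM, and Sall1 at 0.237 CPM or less. The neutrophil markers reached at most 4.89 CPM in sum (4 of 9 at 0, S100a9, Ly6g, Mpo and Retnlg), the dendritic markers 0.515 CPM (Xcr1, Ccr7 and Cd209a at 0) and the lymphocyte markers 0.16 CPM (Cd3e, Cd3d, Nkg7 and Ncr1 among those at 0).

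For the 5 members with a mean of at least 1 CPM, the 3 most similar of 8704 candidate genes by Pearson correlation of log2 CPM over the 9 libraries are given as a description, since the libraries share treatments. Tnfrsf11a was most like Clic4 (0.997), Nckap1l (0.99) and Hip1 (0.989). Src was most like Slc39a3 (0.983), Pdlim2 (0.982) and Smim19 (0.981), and Nfatc1 most like Mvp (0.972), Notch1 (0.964) and Wdfy3 (0.963). Acp5 was most like Evi5l (0.993), Il18bp (0.992) and Cpsf1 (0.986), and Atp6v0d2 most like Mrgpre (0.993), Lmo2 (0.99) and Uck1 (0.988). Il18bp, for example, ran at 71.5, 39.0 and 20.5 CPM in vehicle, rapamycin and Torin-2, and Mrgpre at 8.30, 6.74 and 24.3 CPM.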

How the data were processed

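RNA was measured in 9 libraries as paired reads of 100 bp. The table deposited by the authors holds unscaled counts for each gene. STAR 2.5.2a, bcl2fastq and FastQC are named per the submitters' processing notes, as are the builds mm10 and GRCm38.p6. The sources used here do not give the counting tool or strand setting, so overlapping genes cannot be told apart. Of 53342 identifiers, 53237 were found in GENCODE M21, which gave positions and exon lengths.

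Counts were filtered with filterByExpr, scaled by TMM (factors 0.955 to 1.05) and fitted with edgeR 4.0.16 in R 4.3.3, with all 9 libraries in 3 groups and no covariate. The tests were 2-sided with Benjamini-Hochberg adjustment over all genes tested, and SE is the log2 fold change over the root of F. DESeq2 1.42.0, other scalings, no filter, a replicate block and leaving out libraries were tried. Low counts limit precision most for Ocstamp and Dcstamp.

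The members and lists were chosen with earlier results of these data known. From each list the text names the 2 largest rises and 2 largest falls called with Torin-2 against vehicle at a mean of at least 1 CPM, and genes fixed by name. Some genes of the lists are not reported here. Il18bp and Mrgpre as examples were picked after their values were seen.

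Same-numbered libraries deviated together from their group means (correlations 0.168 to 0.5 for 9 pairs, against -0.358 to 0.162 for 18 others), so the numbers were taken to pair them. This pairing comes from the data, since the labels do not say that a number marks a shared animal. The SEs and calls of the main fit do not use it, and only those with the replicate block do. Of windows as long as a read, 44 of 1985 of Acp5 also lie in the antisense gene 6530413G14Rik (21 counts in all) and 0 of the other members' windows lie in another gene.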

Additional observations from a re-analysis of the deposited data

How the results depend on the processing

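Under all 15 alternatives the count of called members stayed within 1.5 times its value. So did that of called list genes, taken over all 8 lists and both directions together. Single lists split by direction moved more in places. Fusion and surface genes lower with rapamycin against vehicle ran from 3 to 8 (4 in the main fit). Transcription factors lower in that comparison ran from 2 to 4 (main fit 2). Proton pump genes lower with Torin-2 against rapamycin ran from 5 to 11 (main fit 11). Leaving out 1 library at a time gave 4 or 5 called members with Torin-2 against vehicle, 4 or 5 with rapamycin against vehicle and 5 with Torin-2 against rapamycin, and 113 to 124, 92 to 108 and 87 to 107 called list genes. With the replicate block 130, 113 and 115 list genes and 5, 5 and 5 members were called. The main fit, without the block, called 121, 102 and 106 list genes and 5, 4 and 5 members. Among members the block changed 1 call, that of Atp6v0d2 with rapamycin. Among named list genes it added Fgr with Torin-2, Fyn (edgeR adjusted p 0.0256) and Spp1 with rapamycin, and Zeb2 and Atp6v1a (0.0261) between the inhibitors, and it changed no other call of members or named genes. No called member changed sign. With no filter on low counts Dcstamp was tested too and was called with rapamycin against vehicle (edgeR adjusted p 0.00115) and Torin-2 against rapamycin (0.0238). That fit gave far smaller adjusted p than the main fit for well counted members. For Atp6v0d2 with Torin-2 against vehicle it was 5.5e-62 against 6.92e-06 (edgeR), with an SE of 0.07 against 0.13. For Tnfrsf11a the SE was 0.08 against 0.07. No weight is placed on calls that only appear with no filter, here or above. Of 110 calls of named list genes, 98 held under all 15 alternatives and 0 reversed.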

Other observations

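Replicate 3 of each group had the highest Acp5 and Atp6v0d2 of its group and the lowest Ocstamp. These 3 libraries also lay at -15.2 to -33.8 on the third principal component, which carried 9.69% of the variance, with the other 6 at 8.51 to 13.7. Without them, an alternative chosen after seeing the data, 5 members were called in each comparison.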
